A study of Homo sapiens with 4 samples.

Results

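The genes described here are 34 mitotic genes, given as a list of names that covers the kinases and cyclins of mitotic entry, the spindle checkpoint, the centromere and kinetochore, the chromosomal passenger complex, condensin with topoisomerase II, and proteins of the spindle, midzone and cytokinesis. All 34 were found among the 60564 gene identifiers of the count tables by their symbols, and all 34 passed the filter on low counts. RNA was sequenced from Elf1 cells, an established naïve human embryonic stem cell (ESC) line, after ribosomal RNA depletion. Per the labels the 2-D cells grew adherent on plastic plates coated with Matrigel, and per the study's methods the line was kept on mouse feeder cells before it was moved to plates without feeders. For 3-D culture single cells were enclosed in a scaffold that self-assembled around them from the end-functionalized polyethylene glycols PEG-8-SH and PEG-8-Acr, and were kept for 21 days in the same ESC expansion medium. Each condition had 2 libraries from independent biological replicates of this 1 line, with no genetic change in either. The comparison asks how RNA levels differed between scaffold culture and 2-D culture. Per the study, 2-D cells needed routine passaging, while the cells in the scaffold grew without it. Scaffold, time in culture and passaging therefore cannot be told apart. From direct cell counts the study also reported slower proliferation in the scaffold, with a similar fold increase by the end of that culture. How the RNA levels of the mitotic genes relate to this slower growth was not tested.

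Entry into mitosis is driven by the kinase CDK1 bound to a cyclin, with the polo and Aurora kinases acting beside it. Condensin and topoisomerase II then compact and untangle the chromosomes, kinetochores built on the centromere attach them to spindle microtubules, and the spindle checkpoint holds back the anaphase-promoting complex until every kinetochore is attached. Most of these genes are transcribed periodically, with RNA that peaks in G2 and mitosis, so in bulk RNA their levels are commonly read as a sign of how many cells are dividing. ESCs divide rapidly and carry high levels of them.

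The counts of a library summed to between 30114220 and 33833778 in 2-D and between 18276147 and 21154409 in 3-D grown cells. The 34 genes held between 21 and 18352 counts in a library, with a median of 2762.5, and SPC25 and PRC1 were the only ones with 100 counts or fewer in every library. Levels are given as CPM, the counts of a gene per 1000000 counts of its library after edgeR's TMM scaling, in the order 2-D replicate 1, 2-D replicate 2, 3-D replicate 1 and 3-D replicate 2. Every fold change sets 3-D over 2-D, and a gene is called where edgeR's quasi-likelihood test gave a Benjamini-Hochberg adjusted p below 0.05 over the 22555 genes tested, written below as the edgeR adjusted p. These p-values set the difference between the conditions against the spread between the libraries of a condition. With 2 libraries per condition the fit draws that spread in part from other genes. The pluripotency markers POU5F1, SOX2 and NANOG had between 108 and 258 CPM in every library, and 1 of 8 such markers was called, DNMT3B, higher in 3-D. Of 6 tested fibroblast markers 4 were called, all higher in 3-D (COL1A1, COL3A1, THY1 and POSTN), with a summed level of the list of 532 to 540 CPM in 2-D and 551 to 601 CPM in 3-D grown cells, while DCN and LUM were too low to be tested. No endoderm, mesoderm, neural ectoderm or trophoblast marker was called. The summed levels were 9.81 to 10.1 against 11.3 to 11.8 CPM for endoderm and 66.1 to 66.5 against 71.0 to 71.3 CPM for mesoderm. They were 585 to 591 against 609 to 612 CPM for neural ectoderm and 3.88 to 4.79 against 5.34 to 5.62 CPM for trophoblast, where CGA and VGLL1 had no counts. NES alone had 581, 576, 601 and 598 CPM of the neural sum, while SOX1 and OTX1 were too low to be tested. COL1A2, which was not called, had 324, 316, 300 and 324 CPM of the fibroblast sum. The part of other cells in the results was not tested, and in bulk RNA fewer cells of a type and less RNA per cell cannot be told apart.

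The mitotic genes changed little between the conditions. Their summed level was 4592.9 CPM in both 2-D libraries and 4744.5 and 4707.6 CPM in the 3-D libraries. Of the 34 genes 8 were called, which is 23.5% of them, against 7.9% of all tested genes and 18.0% of the tested genes with a mean of 20 CPM or more, a level that 32 of the 34 reached. PLK1, BUB1B, INCENP, SMC4, TPX2 and ANLN were higher and CDK1 and MAD2L1 were lower in 3-D grown cells, 6 against 2, where all tested genes divided into 1024 higher and 758 lower (4.54% and 3.36%, or 10.8% and 7.18% of those with 20 CPM or more), and scaled by library size alone these splits became 1 against 5 and 514 against 1872. At an unadjusted p below 0.05 the mitotic genes numbered 16, of which 11 were higher and 5 lower, beside 21.3% of all tested genes and 38.6% of those with 20 CPM or more. The median log2 fold change of the 34 genes was 0.03, beside −0.0001 over all tested genes, and it was −0.04 when scaled by library size alone. In size, their median absolute log2 fold change was 0.0781, beside 0.0767 for all tested genes with 20 CPM or more. The conditions did not overlap for 23 genes (67.6%), with 14 of them higher and 9 lower in 3-D. This was so for 50.5% of all tested genes (25.4% higher and 25.1% lower) and for 64.8% of those with 20 CPM or more (35.3% higher and 29.4% lower). The share of mitotic genes without overlap was thus close to that of other genes at their level. DESeq2, the tool of the study, was run anew here, and the study's own calls were not used. It called 4 of the 8 genes, PLK1, TPX2, ANLN and CDK1, with 511 of all genes higher and 284 lower. The likelihood ratio test of edgeR called PLK1, CDK1 and PRC1, with 651 of all genes higher and 488 lower. With 1 library left out a condition has 1 replicate, and the calls of the mitotic genes moved, as did those of all genes. The median log2 fold change of the 34 genes was then 0.0209 without 2-D replicate 1 and 0.0142 without 2-D replicate 2. Without 3-D replicate 1 it was 0.0226.

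**Figure D1:**
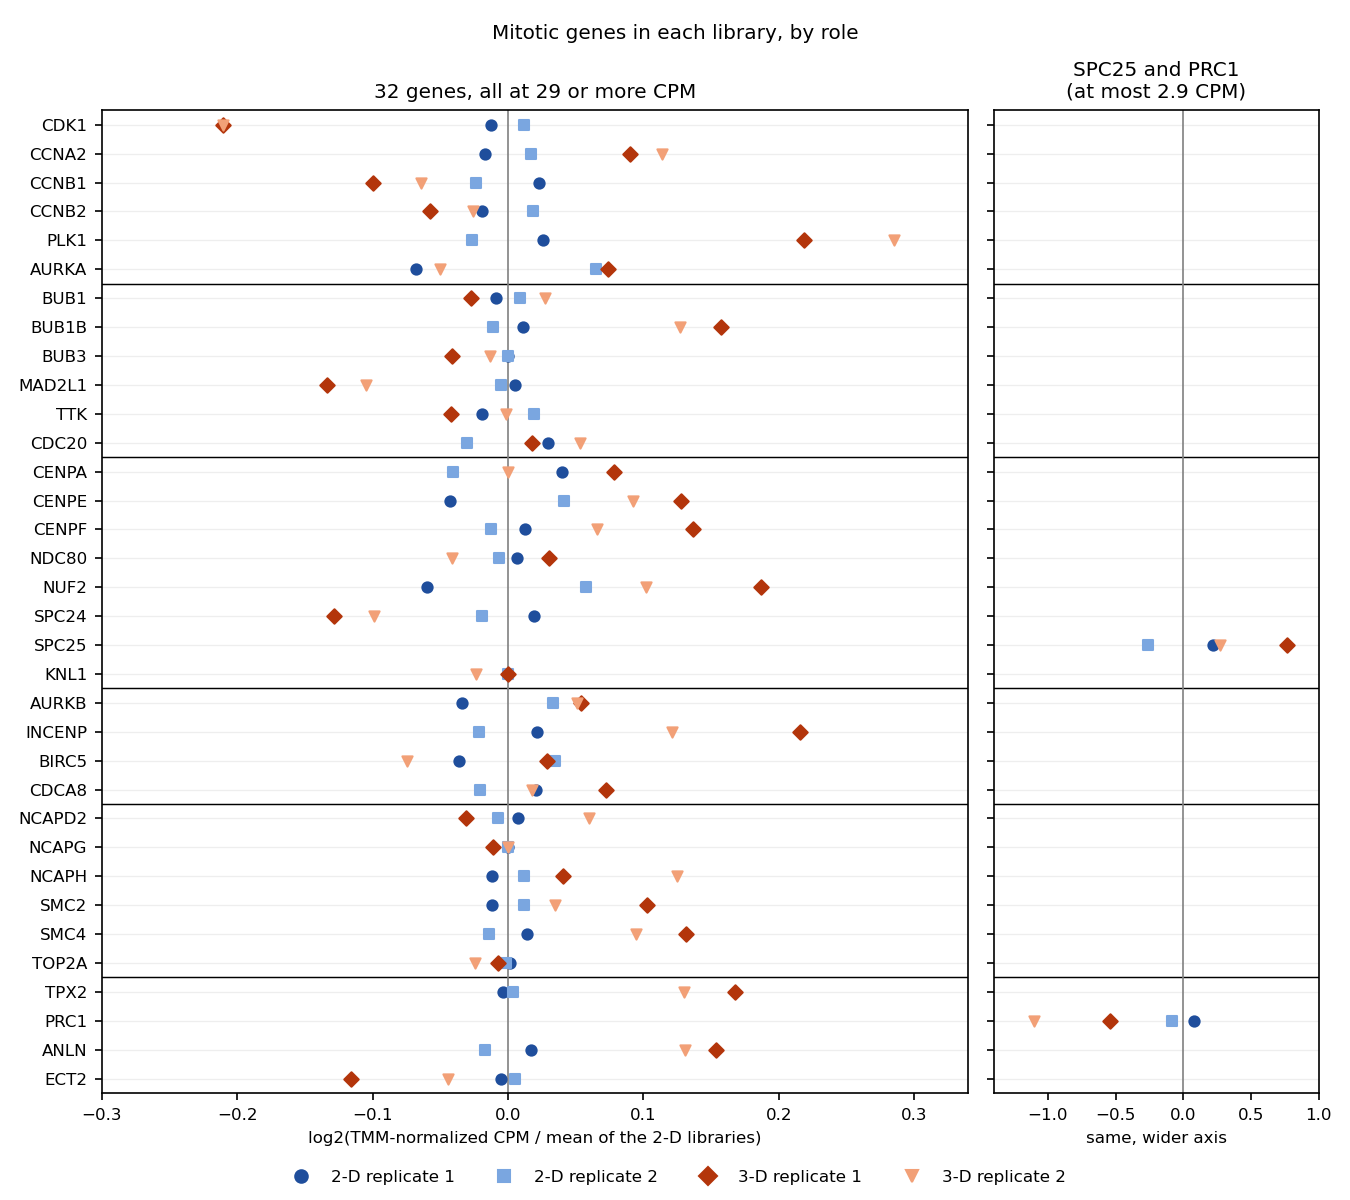
Level of each mitotic gene in each library, as the log2 ratio of its TMM-normalized CPM to the mean of the 2-D libraries (horizontal axis), in 6 role groups divided by black lines; circles and squares are the 2-D and diamonds and triangles the 3-D libraries, and SPC25 and PRC1 have a wider axis at the right. PLK1 stands farthest to the right and CDK1 farthest to the left among the 32 genes of the left panel, and for 11 genes the symbols of the conditions overlap.

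**Figure D2:**
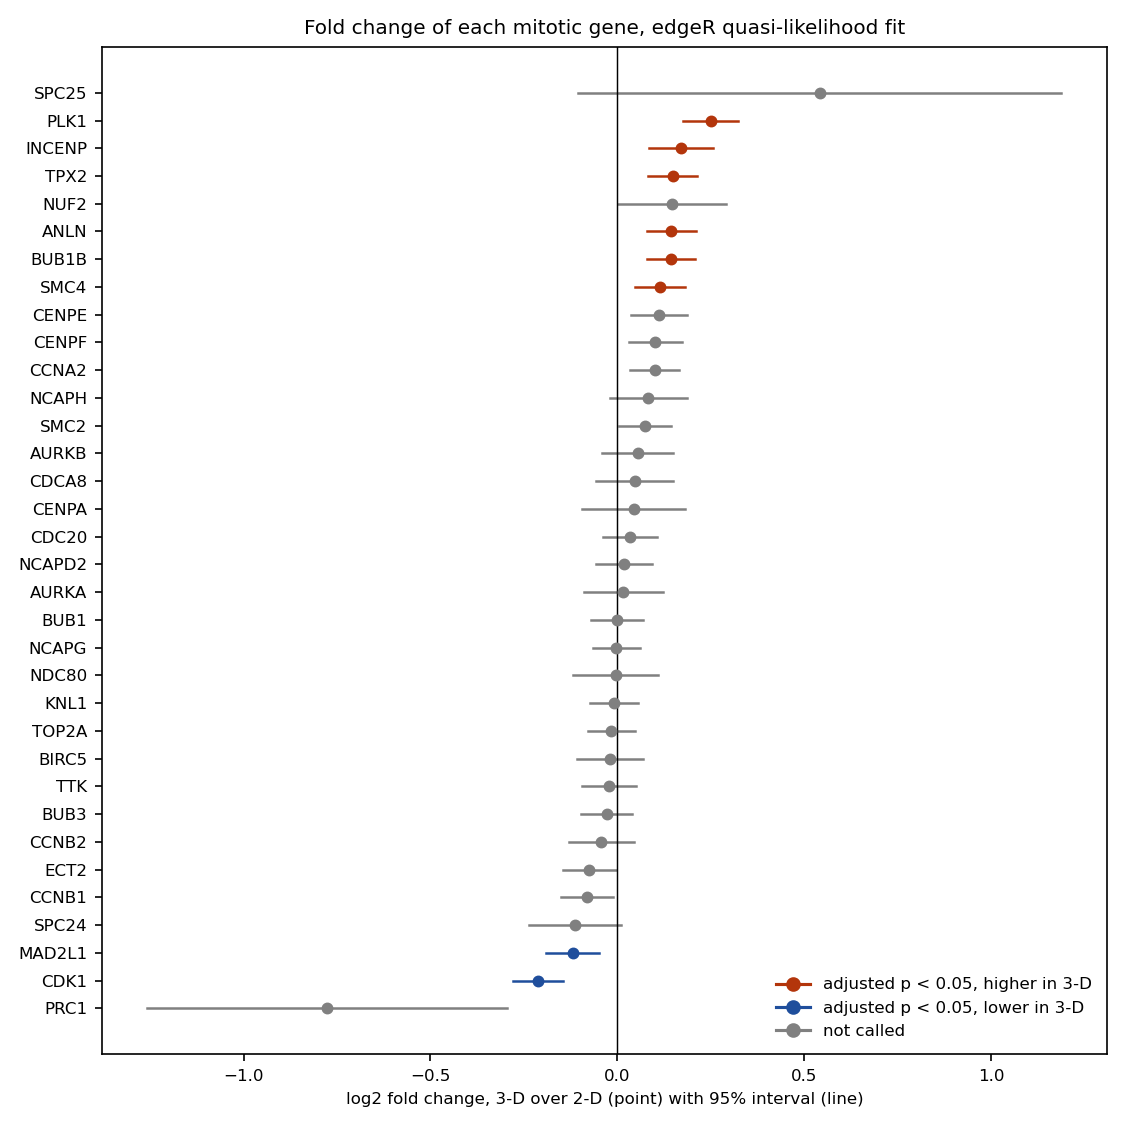
Log2 fold change, 3-D over 2-D, of each mitotic gene (point) with its 95% interval (line) from edgeR's quasi-likelihood fit, ordered by size. The 6 genes called higher are red, the 2 called lower are blue and the 26 not called are grey; scaled by library size alone all points lie further to the left and the calls are 1 higher and 5 lower.

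The entry kinases and cyclins moved in both directions, with 1 gene called higher, 1 called lower and 4 not called. The called share was 33.3%, beside 7.9% of all tested genes and 18.0% of those with 20 CPM or more. CDK1, the kinase that drives cells into mitosis, had 117 and 119 CPM in 2-D and 102 and 102 CPM in 3-D grown cells. Both 3-D libraries were below both 2-D libraries, and its RNA fell by 13.7% (log2 change −0.21, standard error 0.0307, edgeR adjusted p = 0.00116). PLK1, the polo kinase of centrosome maturation and mitotic entry, had 112, 108, 128 and 134 CPM. Both 3-D libraries were above both 2-D libraries, and its RNA rose by 18.9% (log2 fold change 0.25, standard error 0.0335, edgeR adjusted p = 0.000745). CDK1 and PLK1 were the 2 mitotic genes called in the same direction under all 17 alternatives of the analysis, with log2 fold changes of −0.28 to −0.17 and of 0.19 to 0.28. The study picked CDK1 on these samples for a display of the p53 pathway, so its direction here is not independent evidence. By quantitative PCR, a separate assay, the study also reported lower CDK1 RNA in the scaffold than in adherent culture. Whether that RNA came from the sequenced cultures is not stated. Of the exon bases of PLK1, 11.6% are shared with a long noncoding RNA on the opposite strand that had 483, 457, 312 and 295 counts, beside 3852, 3330, 2627 and 2398 counts for PLK1. The sources used here do not give whether counting used the strand of a read.

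CCNA2, CCNB1 and CCNB2, the cyclins among the 34 genes, were not called. CCNA2, cyclin A2, which acts from S phase into early mitosis, had 169, 173, 182 and 185 CPM, with no overlap of the conditions and a log2 difference of 0.10 (standard error 0.0301, edgeR adjusted p = 0.0667). It was at 0.11 without 3-D replicate 1 and at 0.09 without 3-D replicate 2. CCNB1, cyclin B1, the main partner of CDK1 in mitosis, had 221, 214, 203 and 208 CPM (log2 fold change −0.08, edgeR adjusted p = 0.156). CCNB1 was at −0.06 without 3-D replicate 1 and at −0.10 without 3-D replicate 2. CCNB2, cyclin B2, had 60.8, 62.4, 59.2 and 60.5 CPM (−0.04, edgeR adjusted p = 0.612). For both B-type cyclins the 3-D libraries lay just under the 2-D libraries. AURKA, the Aurora kinase of the spindle poles, had 90.2, 98.9, 99.5 and 91.3 CPM, and its conditions overlapped (0.02, edgeR adjusted p = 0.904, and −0.05 when scaled by library size alone). AURKA has an alignment elsewhere in the genome over 76.2% of its transcript with 94.4% identity.

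The promoters of the entry genes are shown because the proximal promoters of mitotic genes are known for 2 kinds of short element. These are CCAAT boxes, bound by the NF-Y factor, and a CHR element near the start, spelled TTTGAA and in some genes TTTAAA, bound by the DREAM and MMB complexes that repress these genes in resting cells and switch them on toward mitosis. The sequences are the 250 bases before the transcription start in RefSeq on GRCh38.p14, 5′ to 3′ on the strand of the gene, with the CCAAT boxes and both spellings of CHR on either strand in capitals, where ATTGG is a CCAAT box read on the other strand. MAD2L1 is shown because it had, after CDK1, the smallest p among the mitotic genes with lower levels in 3-D.
CDK1: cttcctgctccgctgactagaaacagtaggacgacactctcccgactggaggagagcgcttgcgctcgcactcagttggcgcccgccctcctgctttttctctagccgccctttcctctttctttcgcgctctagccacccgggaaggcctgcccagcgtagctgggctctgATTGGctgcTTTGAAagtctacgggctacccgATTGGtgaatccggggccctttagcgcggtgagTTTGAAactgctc
CCNA2: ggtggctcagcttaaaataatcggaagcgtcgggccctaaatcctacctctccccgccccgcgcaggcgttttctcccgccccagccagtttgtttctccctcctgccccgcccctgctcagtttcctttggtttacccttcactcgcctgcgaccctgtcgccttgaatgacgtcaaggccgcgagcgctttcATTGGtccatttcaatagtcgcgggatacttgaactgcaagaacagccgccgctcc
CCNB1: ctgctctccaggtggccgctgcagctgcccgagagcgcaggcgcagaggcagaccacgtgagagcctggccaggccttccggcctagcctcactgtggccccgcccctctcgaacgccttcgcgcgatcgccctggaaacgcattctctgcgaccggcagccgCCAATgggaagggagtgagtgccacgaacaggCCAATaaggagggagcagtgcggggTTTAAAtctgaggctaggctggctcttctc
CCNB2: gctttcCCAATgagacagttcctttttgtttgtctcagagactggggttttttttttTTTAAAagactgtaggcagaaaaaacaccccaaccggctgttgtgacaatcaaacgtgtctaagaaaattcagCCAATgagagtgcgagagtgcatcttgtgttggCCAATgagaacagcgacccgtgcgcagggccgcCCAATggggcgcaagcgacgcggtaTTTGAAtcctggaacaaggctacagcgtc
PLK1: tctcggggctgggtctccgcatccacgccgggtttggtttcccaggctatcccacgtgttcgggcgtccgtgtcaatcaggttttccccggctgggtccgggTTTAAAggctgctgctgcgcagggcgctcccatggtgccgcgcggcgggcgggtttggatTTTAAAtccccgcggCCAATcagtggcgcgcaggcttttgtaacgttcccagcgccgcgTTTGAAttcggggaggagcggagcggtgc
MAD2L1: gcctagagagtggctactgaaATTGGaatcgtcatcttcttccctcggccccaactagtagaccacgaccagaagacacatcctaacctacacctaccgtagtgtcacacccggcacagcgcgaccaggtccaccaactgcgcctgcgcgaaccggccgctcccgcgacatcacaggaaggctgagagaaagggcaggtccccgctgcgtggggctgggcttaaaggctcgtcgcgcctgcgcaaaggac
They lie on the plus strand at chr10:60778228-60778477 for CDK1, which has a further window upstream, at chr5:69166900-69167149 for CCNB1, at chr15:59104896-59105145 for CCNB2 and at chr16:23678639-23678888 for PLK1. CCNA2 is on the minus strand at chr4:121823884-121824133 and MAD2L1 on the minus strand at chr4:120066849-120067098. In the printed window CDK1 has 2 CCAAT boxes on the minus strand and 2 TTTGAA elements, of which the nearer begins 13 bases before the start. PLK1, which moved the other way, has 1 CCAAT box and TTTGAA beginning 29 bases before the start, and CCNB2 has TTTGAA at the same distance. CCNB1 has TTTAAA beginning 30 bases before the start. CCNA2 has a CCAAT box and neither of the CHR spellings searched for, and other spellings were not searched. MAD2L1 has its TTTGAA 25 bases after the start, outside the printed bases.

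Of the 34 mitotic genes 28 matched a promoter window of RefSeq, from 250 bases before to 50 after the start, and AURKA, BUB3, TTK, KNL1, BIRC5 and TPX2 did not. CCAAT stood in a window of 20 of these 28 genes (71.4%), where 39.7% of the 27305 genes of the table have it. TTTGAA stood in 21 (75.0%, against 18.2% of all genes) and TTTAAA, which reads the same on both strands, in 8 (28.6%, against 14.5%). Either CHR spelling was found in 24 genes (85.7%, against 27.9%) and a CHR spelling together with CCAAT in 16 (57.1%, against 12.7%). A CHR spelling within the 50 bases before the start was found in 14 genes (50%, against 5.98%). Among the matches of the mitotic genes 1 overlapped a match to another motif, and 5 genes have 2 windows, of which either could hold the motif. The 4 genes with neither CHR spelling were CCNA2, BUB1, SPC24 and AURKB, and other spellings were not searched. Among genes with a CHR spelling in the 50 bases before the start, PLK1, INCENP, BUB1B and ANLN were called higher and CDK1 lower. The others, CDCA8, CENPA, SPC25, NCAPG, CCNB1, SMC2, CCNB2, PRC1 and NDC80, were not called. A match is a description of the letters and does not show a bound site.

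Of the 6 spindle checkpoint genes 1 was called higher, 1 was called lower and 4 were not called. The called share was 33.3%, beside 7.9% of all tested genes and 18.0% of those with 20 CPM or more. BUB1B, which encodes BUBR1, the checkpoint subunit that blocks the anaphase-promoting complex, had 131 and 129 CPM in 2-D and 145 and 142 CPM in 3-D grown cells. The conditions did not overlap, and BUB1B rose by 10.5% (log2 fold change 0.14, standard error 0.0295, edgeR adjusted p = 0.0102). MAD2L1, which encodes MAD2, the checkpoint protein that binds CDC20, had 99.4, 98.7, 90.3 and 92.1 CPM. Its 3-D libraries were both lower, and it fell by 7.97% (log2 fold change −0.12, standard error 0.0322, edgeR adjusted p = 0.0399). Both proteins act in the same inhibitory complex, and their genes moved in opposite directions. BUB1B was not called without 2-D replicate 1 (edgeR adjusted p = 0.0682) or 2-D replicate 2 (0.131), and MAD2L1 was not called without 2-D replicate 1 (0.302), 2-D replicate 2 (0.261) or 3-D replicate 1 (0.0727), nor by DESeq2 (DESeq2 adjusted p = 0.0844 for BUB1B and 0.300 for MAD2L1) or edgeR's likelihood ratio test (0.0616 and 0.201). Scaled by library size alone BUB1B was at 0.08 and not called (edgeR adjusted p = 0.118), and MAD2L1 was called at −0.18 (edgeR adjusted p = 0.00422) but not with length and GC offsets (0.0816).

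The other checkpoint genes showed little difference. BUB1, a kinase that recruits the checkpoint to kinetochores, had 237, 240, 234 and 243 CPM (log2 fold change −0.0011, edgeR adjusted p = 0.991). BUB3, which brings BUB1 and BUBR1 to the kinetochore, had 107, 107, 104 and 106 CPM (−0.03, edgeR adjusted p = 0.671). TTK, the kinase MPS1 that starts checkpoint signalling, had 96.5, 99.1, 95.0 and 97.7 CPM (−0.02, edgeR adjusted p = 0.778). The conditions overlapped for BUB1 and TTK, and for BUB3 the 3-D libraries lay just under the 2-D libraries. CDC20, the activator of the anaphase-promoting complex that the checkpoint holds in check, had 122, 117, 121 and 124 CPM (0.03, edgeR adjusted p = 0.633, and −0.03 when scaled by library size alone), and its 2-D libraries spanned one of the 3-D libraries.

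None of the 8 centromere and kinetochore genes was called, and their median log2 fold change was 0.07. CENPA, the histone H3 variant that marks the centromere, had 33.2, 31.4, 34.1 and 32.3 CPM (log2 fold change 0.04, edgeR adjusted p = 0.771, and −0.02 when scaled by library size alone). CENPE, a kinesin that carries chromosomes to the spindle equator, had 183, 194, 206 and 201 CPM (0.11, edgeR adjusted p = 0.0747). CENPF, a large protein of the outer kinetochore, had 532, 523, 580 and 552 CPM (0.10, edgeR adjusted p = 0.0848). Both lay higher in the 3-D libraries without overlap, and without 3-D replicate 2 CENPE was at 0.13 and CENPF at 0.14. CENPE was at 0.07 without 2-D replicate 1, and CENPF was at 0.07 without 3-D replicate 1.

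NDC80, NUF2, SPC24 and SPC25 encode the 4 subunits of the NDC80 complex, which grips the microtubule, and they did not share a direction. NDC80 had 42.7, 42.3, 43.4 and 41.3 CPM (log2 fold change −0.0047, edgeR adjusted p = 0.974). NUF2, its direct partner, had 29.5, 32.0, 35.0 and 33.0 CPM (0.15, edgeR adjusted p = 0.229). SPC24 had 38.1, 37.1, 34.4 and 35.1 CPM (−0.11, edgeR adjusted p = 0.274). NUF2 lay higher and SPC24 lower in both 3-D libraries, and neither passed the test. SPC25, the partner of SPC24, had 1.13, 0.81, 1.65 and 1.17 CPM, from 39, 25, 34 and 21 counts (0.54, standard error 0.30, edgeR adjusted p = 0.332). SPC25 has a near-identical copy on an alternate contig of hg38, over 100% of its transcript with 99.9% identity, so its counts are uncertain, and its level does not compare with those of its 3 partners. KNL1, the scaffold on which BUB1 and BUB3 dock, had 122, 122, 122 and 120 CPM (−0.0096, edgeR adjusted p = 0.899), which is the same level in all 4 libraries.

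In the chromosomal passenger complex, which corrects faulty attachments and later acts at the midzone, 1 of 4 genes was called. INCENP, the scaffold that activates Aurora B, had 78.3 and 76.0 CPM in 2-D and 89.6 and 83.9 CPM in 3-D grown cells. It rose by 12.5% with no overlap (log2 fold change 0.17, standard error 0.0394, edgeR adjusted p = 0.0199). The call was lost with offsets for length and GC content (0.10, edgeR adjusted p = 0.217), when scaled by library size alone (0.11, edgeR adjusted p = 0.111), by the likelihood ratio test (0.0653), by DESeq2 (DESeq2 adjusted p = 0.128), without 2-D replicate 2 (edgeR adjusted p = 0.189) and without 3-D replicate 1 (edgeR adjusted p = 0.0723). AURKB, the kinase of the complex, had 52.8, 55.3, 56.1 and 56.0 CPM (0.05, edgeR adjusted p = 0.548). BIRC5, survivin, had 91.2, 95.8, 95.4 and 88.8 CPM (−0.02, edgeR adjusted p = 0.842). CDCA8, borealin, had 49.2, 47.8, 51.0 and 49.1 CPM (0.05, edgeR adjusted p = 0.653). These 3 genes differed by less than the test could call, AURKB without overlap and BIRC5 and CDCA8 with it, and scaled by library size alone AURKB and CDCA8 turned to −0.01 and −0.02.

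Of the 5 condensin I genes 1 was called. With TOP2A the group held 6 genes, of which 16.7% were called. This stands beside 7.9% of all tested genes and 18.0% of those with 20 CPM or more. SMC4, one of the pair of ATPase arms of condensin, had 260 and 255 CPM in 2-D and 282 and 275 CPM in 3-D grown cells. The 3-D libraries were both higher, and SMC4 rose by 8.19% (log2 fold change 0.11, standard error 0.0304, edgeR adjusted p = 0.0391). The call was lost without 2-D replicate 1 (edgeR adjusted p = 0.206) or 2-D replicate 2 (0.387), when scaled by library size alone (0.05, edgeR adjusted p = 0.362), by the likelihood ratio test (0.245), by DESeq2 (DESeq2 adjusted p = 0.0855), with at least 10 counts in every library (0.0544) and after thinning (0.0687). SMC4 shares 19.0% of its exon bases with TRIM59 on the opposite strand, which had 3467, 3133, 1848 and 1653 counts beside 8955, 7882, 5801 and 4944 for SMC4. SMC2, the other arm, had 121, 123, 131 and 125 CPM (0.07, edgeR adjusted p = 0.208). SMC2 was at 0.11 without 3-D replicate 2 and at 0.04 without 3-D replicate 1. The 3 subunits that are particular to condensin I differed less. NCAPD2 had 190, 188, 185 and 197 CPM (0.02, edgeR adjusted p = 0.833, and −0.05 when scaled by library size alone). NCAPG had 128, 128, 127 and 128 CPM (−0.0037, edgeR adjusted p = 0.963). NCAPH, the kleisin that closes the ring, had 48.3, 49.1, 50.1 and 53.1 CPM (0.08, edgeR adjusted p = 0.363). NCAPG was the steadiest of the 3 across libraries, and it shares 33.7% of its exon bases with LCORL on the opposite strand, which had 1029 to 2002 counts. TOP2A, topoisomerase IIα, which untangles sister chromatids, had 503, 502, 500 and 494 CPM (−0.02, edgeR adjusted p = 0.820), and was nearly level across the 4 libraries.

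Among the 4 genes of spindle assembly, midzone and cytokinesis 2 were called, and in each of the 4 the conditions did not overlap. Of all tested genes 7.9% were called and 50.5% did not overlap, or 18.0% and 64.8% of those with 20 CPM or more. TPX2, which activates Aurora A and nucleates spindle microtubules, had 206 and 207 CPM in 2-D and 232 and 226 CPM in 3-D grown cells. It rose by 10.8% (log2 fold change 0.15, standard error 0.0301, edgeR adjusted p = 0.00986), while AURKA itself did not differ beyond the spread of its libraries. ANLN, anillin, the scaffold of the contractile ring, had 171, 167, 188 and 185 CPM. It rose by 10.5% (0.14, standard error 0.0306, edgeR adjusted p = 0.0122). TPX2 was not called without 2-D replicate 1 (edgeR adjusted p = 0.0993) or 2-D replicate 2 (0.109), and ANLN was not called without 2-D replicate 2 (0.216). Both calls were also lost when scaled by library size alone (TPX2 0.08, edgeR adjusted p = 0.104, and ANLN 0.08, edgeR adjusted p = 0.125) and by edgeR's likelihood ratio test (adjusted p = 0.0707 and 0.0779). ECT2, the exchange factor that turns on RhoA for furrowing, had 148, 149, 137 and 144 CPM (−0.08, edgeR adjusted p = 0.208). ECT2 was at −0.11 without 3-D replicate 2 and at −0.03 without 3-D replicate 1.

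PRC1, the bundler of midzone microtubules, was assigned few counts. It had 2.90, 2.59, 1.89 and 1.28 CPM, from 100, 80, 39 and 23 counts, with a log2 difference of −0.78 (standard error 0.22, edgeR adjusted p = 0.0520), and it was called without 3-D replicate 1 (−1.10, edgeR adjusted p = 0.00621). Without 3-D replicate 2 the value was −0.54 (edgeR adjusted p = 0.185), so its size rests on which 3-D library is used. Its exon bases are shared to 57.6% with another gene model on the same strand, which had 253, 248, 141 and 143 counts, and to 34.3% with PRC1-AS1 on the opposite strand, which had 1653, 1478, 976 and 889 counts. Its counts are therefore uncertain, and the part of the shared bases in its low level was not tested.

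For the 24 uncalled genes with 20 CPM or more the intervals bound how large a difference could be. In 23 of them the 95% interval of the log2 fold change lay within ±0.25, a change of at most 18.9% in the higher direction. The exception was NUF2, with an interval of 0.0015 to 0.29. SPC25 and PRC1, both under 3 CPM, had the only log2 fold changes above 0.25 in size, and their intervals were the widest.

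**Figure D3:**
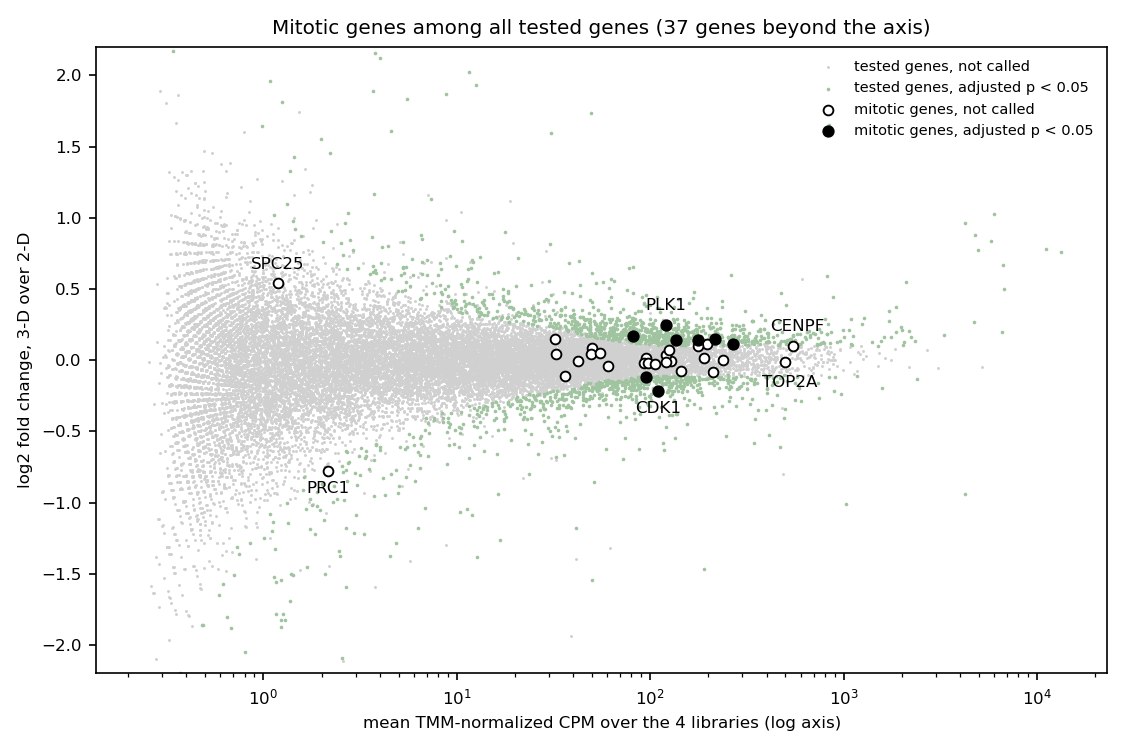
Log2 fold change, 3-D over 2-D (vertical axis), against the mean TMM-normalized CPM of the 4 libraries (horizontal log axis) for all 22555 tested genes, grey where not called and green where called, with the 34 mitotic genes as circles, filled where called; 37 genes lie beyond the vertical limits of ±2.2. The mitotic genes with 20 CPM or more lie in the narrow right part of the cloud, CDK1 and PLK1 at its edges, and PRC1 and SPC25 in the wide left part.

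Levels between genes are compared per kb of merged exons. In 2-D culture the highest was CCNB1 at 89.3 CPM per kb, followed by TOP2A at 78.8, CCNA2 at 62.3, CDC20 at 59.4 and TPX2 at 57.3 CPM per kb. The lowest of the genes with 20 CPM or more was NCAPH at 7.44 CPM per kb, and SPC25 and PRC1, whose counts are uncertain, were assigned 0.530 and 0.497 CPM per kb. In this order the 2-D libraries of neighbours overlapped for AURKA and SMC4, NCAPD2 and BUB1B, BIRC5 and AURKB, PLK1 and CCNB2, CENPE and SMC2, SPC24 and BUB3, and SPC25 and PRC1. The kinase CDK1 stood at 30.2 CPM per kb in 2-D and 26.1 CPM per kb in 3-D grown cells. In 2-D this was under its cyclins CCNB1 and CCNA2 and above CCNB2, at 22.4 CPM per kb. The merged exons hold every annotated exon of a gene, 3.909 kb for CDK1, 2.748 kb for CCNA2 and 2.433 kb for CCNB1. A level per kb thus depends on the annotation as well as on the RNA. From 2-D to 3-D CDK1 went from place 10 to place 15 and PLK1 from place 18, at 23.1 CPM per kb, to place 13, at 27.4 CPM per kb. The first 3 places and the last 6 were the same in both conditions.

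**Figure D4:**
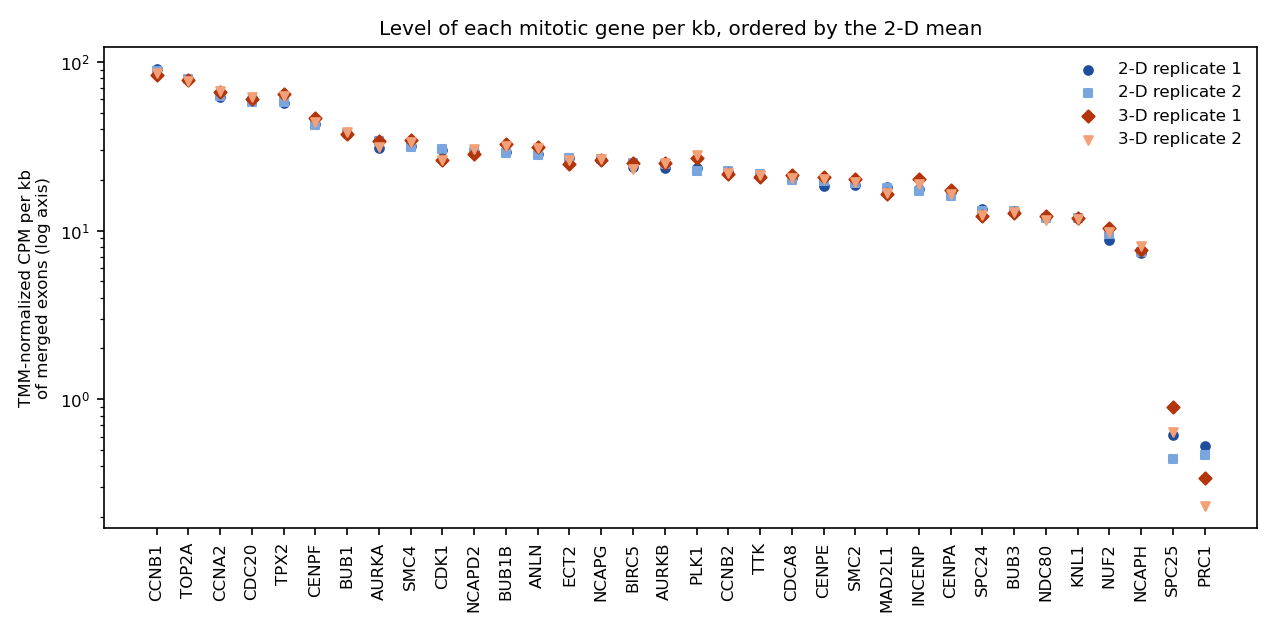
Level of each mitotic gene per kb of merged exons (vertical log axis, TMM-normalized CPM per kb) in each library, ordered by the mean of the 2-D libraries. The 4 symbols of a gene nearly coincide from CCNB1 at 89.3 to NCAPH at 7.44 CPM per kb in 2-D, and SPC25 and PRC1 lie far below the rest.

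The other genes of cell division were examined in 7 lists by role, with 145 of 146 genes tested (SKA1 was not, with at most 1 count in a library). In 3-D 11 of them were called higher and 9 lower, and 6 and 30 when scaled by library size alone. The 20 called genes are 13.8% of those tested, which lies between the 7.9% of all tested genes and the 18.0% of those with 20 CPM or more. With 1 library left out the calls of these genes moved, as did those of all genes. The median log2 fold change of these genes was 0.0047. Among 21 other regulators of mitotic entry none was called higher and 3 were lower. CKS1B, a small subunit that binds CDK1, fell in 3-D grown cells with 64.7, 63.5, 53.9 and 52.3 CPM (log2 fold change −0.27, edgeR adjusted p = 0.00154). CCNA1, cyclin A1, fell with 28.0, 27.3, 21.5 and 20.2 CPM (−0.41, edgeR adjusted p = 0.00314), and WEE1, the kinase that inhibits CDK1, fell with 185, 191, 165 and 177 CPM (−0.14, edgeR adjusted p = 0.0423). CDK1, a subunit of it and an inhibitor of it were lower in 3-D grown cells. The other 18 entry regulators of this list were not called, with log2 fold changes on both sides of 0.

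Of 35 other checkpoint and kinetochore genes 2 were called higher and 4 lower. SKA3, of the complex that follows microtubule ends, was among those higher, with 55.4, 58.3, 64.2 and 66.3 CPM (log2 fold change 0.20, edgeR adjusted p = 0.0128). ZWILCH, of the corona of the kinetochore, CENPI and CENPW, of the inner kinetochore, and OIP5, which helps to load CENPA, were lower (−0.20, −0.14, −0.29 and −0.29, edgeR adjusted p = 0.00384, 0.0228, 0.0218 and 0.0445). Of 20 genes of the anaphase-promoting complex and its partners, the ubiquitin-conjugating enzyme UBE2S was higher with 72.7, 77.9, 88.4 and 91.9 CPM (0.26, edgeR adjusted p = 0.00190) and the catalytic RING subunit ANAPC11 lower with 46.3, 41.7, 35.6 and 36.4 CPM (−0.29, edgeR adjusted p = 0.0118). These lists held calls in both directions, as the mitotic genes and all tested genes did.

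In the lists of chromosome structure, spindle and midzone 20%, 9.09% and 6.67% of the genes were called, beside 7.9% of all tested genes and 18.0% of those with 20 CPM or more. Of 10 genes of condensin II and other chromosome structure 2 were higher, MKI67, the coat protein of mitotic chromosomes used as the proliferation marker Ki-67, with 427, 417, 520 and 497 CPM (log2 fold change 0.27, edgeR adjusted p = 0.000363) and KIF4A, a chromosome-bound kinesin (0.14, edgeR adjusted p = 0.0131). Of 22 spindle genes 2 were higher, TUBG1, γ-tubulin, with 56.8, 57.3, 69.3 and 70.2 CPM (0.29, edgeR adjusted p = 0.000635) and NUMA1, of the spindle poles (0.16, edgeR adjusted p = 0.0246). Of 15 midzone and cytokinesis genes SEPTIN9, a filament protein of the cleavage furrow, was higher with 276, 274, 322 and 318 CPM (0.22, edgeR adjusted p = 0.000765). Of 22 genes of the DREAM, MMB and FOXM1 transcription factors 3 were higher and 1 was lower, 18.2% of the list. FOXM1 had 155, 159, 178 and 178 CPM (0.18, edgeR adjusted p = 0.00255) and MYBL2, the B-MYB subunit of MMB, had 176, 168, 199 and 207 CPM (0.24, edgeR adjusted p = 0.00111). NFYB, a subunit of the CCAAT-binding factor, was higher (0.17, edgeR adjusted p = 0.0450) and E2F5, a DREAM subunit, was lower (−0.15, edgeR adjusted p = 0.0463). The other 18 genes of the list were not called, with log2 fold changes on both sides of 0.

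**Figure D5:**
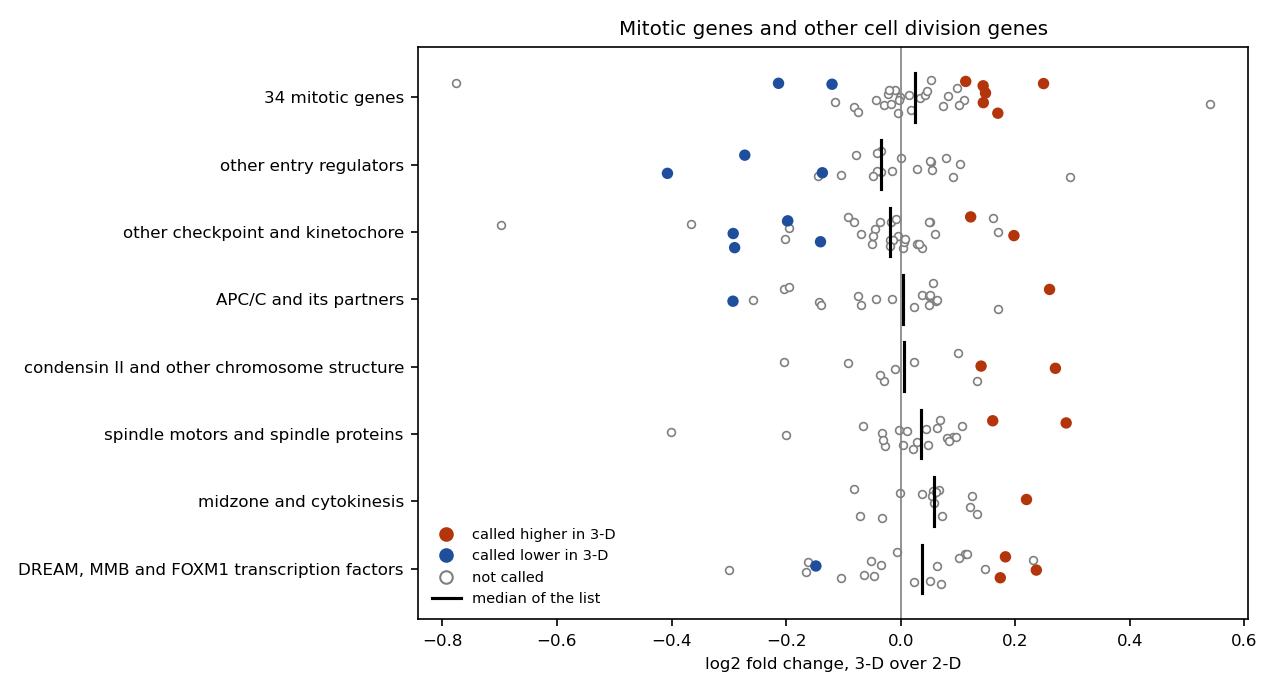
Log2 fold change, 3-D over 2-D (horizontal axis), for the 34 mitotic genes and for each tested gene of the 7 other cell division lists (1 circle per gene, vertical bar at the median of the list), red where called higher, blue where called lower and open where not called. The medians lie between −0.03 and 0.06, and the entry regulators are the only list with calls and none of them higher; scaled by library size alone 6 genes of the 7 lists are called higher and 30 lower.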

How the data were processed

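RNA was measured by RNA-seq in 4 libraries of Elf1 cells, 2 per condition. Per the sources, the authors trimmed paired-end reads with Trim Galore 0.6.3, mapped them to hg38 with HISAT2 2.1.0 and counted them per GENCODE gene with featureCounts 1.6.4. The deposited files hold raw counts per gene, 1 file a library. A further deposited table holds the authors' normalized signal, counts over a size factor of DESeq2, which was used in 1 alternative, and the authors' own fold changes and p-values, which were not used. Of the columns of values 0 were left out as belonging to no sample.

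The 60564 identifiers were matched to GENCODE release 44 for names, positions and lengths. The study counted with an earlier release, so exon lengths, shared exon bases and levels per kb may differ from those of the counted annotation. Counts were tested with edgeR 4.0.16 in R 4.3.3 (TMM, filterByExpr, quasi-likelihood test in legacy mode, condition alone, Benjamini-Hochberg adjustment over 22555 genes). The standard error is the size of the log2 fold change over the square root of F. The biological coefficient of variation was 5.10%. Counts of the 2 libraries of a condition differed by more than sampling noise (chi-square per degree of freedom 2.27 for 2-D, 3.92 for 3-D), and each is 1 replicate. The 17 alternatives are other scalings, filters and tools (DESeq2 1.42.0, limma 3.58.1 with a pseudocount of 1), a replicate block, offsets for length and GC content, thinning, and leaving out each library, where the lone library is assumed to vary like the other condition. Genes with a mean of at least 20 CPM were added as a background after seeing the data. Copies were sought with minimap2 2.31-r1302 (at least 80% of the transcript, 98% identity), promoters were searched with Python 3.11.15 and the fits were tested on simulated counts. There the edgeR fit recovered 67.7% of 2-fold and 44.9% of 1.4-fold changes over 22555 genes of all levels. A gene that was not called need not be unchanged. All 34 mitotic genes are named, and from other lists the called genes, at most 4 in each direction, except 1 gene that is not reported here. The members and lists were chosen with earlier results of these data known. Positions of promoters are RefSeq's on GRCh38.p14.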

Additional observations from a re-analysis of the deposited data

How the results depend on the processing

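CDK1 and PLK1 were called in the same direction under all 17 alternatives. Scaling by library size alone gave 1 mitotic gene higher and 5 lower, 514 and 1872 of all genes, 6 and 30 of the other cell division genes and a median of the mitotic genes of −0.0383 on the log2 scale, and turned AURKA to −0.0494, CDC20 to −0.0304, CENPA to −0.0210, AURKB to −0.0106, CDCA8 to −0.0185 and NCAPD2 to −0.0462. The likelihood ratio test called 1 mitotic gene higher, 651 and 488 of all genes and 7 and 4 of the other cell division genes. DESeq2 called 3 and 1, 511 and 284, and 6 and 4, in that order. Of the mitotic genes 1 was called lower by edgeR without its legacy mode, with length and GC offsets, by limma-trend and after thinning the 2-D libraries. Without the filter on low counts, 14 other cell division genes were called lower, and with at least 10 counts in every library the median was 0.0181. Offsets turned NDC80 to 0.0242, NCAPD2 to −0.0172 and NCAPG to 0.0159, and thinning turned CCNB2 to 0.0003, BUB1 to 0.0067 and KNL1 to 0.0164. Among genes with 20 CPM or more, 18.0% were called.

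Leaving out 1 library at a time gave 1 to 10 mitotic genes higher and 1 to 4 lower, 560 to 1468 and 414 to 1175 of all genes, 7 to 17 and 4 to 14 of the other cell division genes, and a median of 0.0142 to 0.0374. Signs turned within the ranges of AURKA (−0.0519 to 0.0820), NDC80 (−0.0418 to 0.0324), BUB1 (−0.0273 to 0.0279), BIRC5 (−0.0730 to 0.0315), NCAPG (−0.0101 to 0.0056), KNL1 (−0.0206 to 0.0036) and NCAPD2 (−0.0257 to 0.0635), none of which was called without any 1 library. The cause of these shifts was not tested.

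The labels number the replicates 1 and 2 in both conditions, and deviations of same-numbered libraries did not go together (correlation −0.008). With 2 libraries per condition this cannot show whether same-numbered libraries shared a preparation, so a replicate block was kept as an alternative. A replicate block called 7 mitotic genes higher and 3 lower and 14 other cell division genes lower, and with the length and GC offsets it called 1236 of all genes and 15 other cell division genes lower, with NDC80 at 0.0240, NCAPD2 at −0.0175 and NCAPG at 0.0158. Depth limits SPC25 and PRC1 most, and after thinning the 2-D libraries the calls of MAD2L1 (edgeR adjusted p = 0.0800) and SMC4 (0.0687) were lost and CCNA2 was called (0.0426). Motif shares in the 100 bases before to 50 after the start stayed above those of all genes for each motif.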
